A study of Oryza sativa with 48 samples.

Results

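The genes described here lie along the upper part of rice chromosome 11, around CIPK15, a calcium sensor-interacting protein kinase known in rice for linking oxygen shortage to sugar starvation signalling. They were chosen by identifier, from OS11G0112200 to OS11G0209900, with CIPK15 (OS11G0113700) and 6 further identifiers set aside. Of the 630 identifiers in that range, 623 were left after this, and 361 of them reached a mean of at least 1 CPM (counts scaled to a common library size) in at least 1 of 16 groups. These 361 members are part of a table of 37830 genes. The other 262 stayed below that minimum, and 115 of these had no count in any library. The stretch was proposed with the differences between the genotypes in these libraries in view, so the genotype values below describe it and test nothing.

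The libraries came from leaves of the rice cultivar M202, which lacks the submergence tolerance gene SUB1A, and of M202(Sub1), the near-isogenic line that carries the Sub1 locus. Plants of both genotypes were raised in greenhouse pots and then held completely under water. Leaves were collected at day 0, before submergence, and after 1, 3 and 6 days. The fifth leaf, still elongating, was kept apart from the lower, non-elongating leaves. The 2 leaf types, 4 days and 2 genotypes gave 16 groups of 3 independent biological replicates. M202(Sub1) is a single line, and no plants kept in air to days 1, 3 and 6 were among the groups compared, so a change from day 0 includes leaf age and day of sampling.

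A near-isogenic line is made by repeated crossing of a donor to a recurrent parent, with selection for the donor segment that carries the wanted locus. Stretches of donor chromosome elsewhere can be carried along, and genes within such a stretch keep the donor's alleles. Rice gene identifiers follow the order of the genes along a chromosome, so a run of identifiers is a run of neighbours. The upper ends of rice chromosomes 11 and 12 are known to share a duplicated stretch, whose paired genes can have nearly the same sequence. SUB1A itself lies in a cluster of ethylene response factor genes on chromosome 9, away from the genes described here.

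Library totals lay between 4873142 and 10369501 counts (median 6854259.5), and the members took 1.4 to 2.24% of them. Replicates correlated across genes at 0.967 to 0.988. The leaf markers RCA (Rubisco activase) and LHCB1_CAB1R (a light-harvesting protein) had group means of 591 to 11704 and 487 to 2794 CPM, whereas the root marker RCc3 and the meristem marker OSH1 stayed at or below 0.756 and 0.186 CPM. ADH1, an alcohol dehydrogenase of ethanol fermentation, lay between 13.5 and 20.8 CPM in the day 0 groups and between 403 and 1498 CPM in the day 1 groups. In leaf samples such as these, fewer cells that express a gene and less of its RNA per cell cannot be told apart.

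The members were mostly genes of modest level. The median of their mean CPM was 6.02 over the 350 that had enough counts to be tested, against 11.7 over all 21453 tested genes. Among the 361 members, 206 reached the minimum in all 16 groups and 8 in a single group. The other 11 members were not tested. A gene was called where the adjusted p of edgeR's quasi-likelihood test was under 0.05 after Benjamini-Hochberg adjustment over all tested genes.

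In every leaf type and on every day, members were lower in M202(Sub1) more often than higher. In non-elongating leaves, 63 of 350 members were called at day 0, 26 higher and 37 lower in M202(Sub1), where 2.74% of all tested genes were called. On day 1 the count was 109, with 28 higher and 81 lower, beside 15% of all tested genes. On day 3 it was 99, with 32 higher and 67 lower, beside 13.8%, and on day 6 it was 117, with 41 higher and 76 lower, beside 15.3%. Members called thus made up 18% at day 0 and 28.3 to 33.4% under water in this leaf type.

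Elongating leaves gave the same order of counts. At day 0, 72 members were called, 26 higher and 46 lower, beside 5.3% of all tested genes. Day 1 gave 114 members, 43 higher and 71 lower, beside 20.3%. Day 3 gave 106, 39 higher and 67 lower, beside 14.7%, and day 6 gave 123, 47 higher and 76 lower, beside 20.4%. The median log2 difference of the members, M202(Sub1) minus M202, was negative in all 8 comparisons and lay between -0.22 and -0.05, while that of all tested genes lay between -0.02 and 0.02. With members that had no counts in a group set at the bound that a floor of 3 counts per library allows, the members' medians lay between -0.19 and -0.03.

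Each of the 8 genotype comparisons rests on libraries of its own. Called in none of them were 132 members (37.7%), beside 52.5% of all tested genes, and 218 members were called at least once. A further 34 members were called in all 8, which made up 9.71% of the members and 0.89% of all tested genes. Of these, 23 were lower in M202(Sub1) in every comparison, beside 0.62% of all tested genes, and 10 were higher in every comparison, beside 0.266%. The remaining gene, OS11G0115400, was higher in 7 comparisons by 0.53 to 2.06 (log2) and lower in non-elongating leaves on day 6, where the difference was -0.85.

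**Figure D1:**
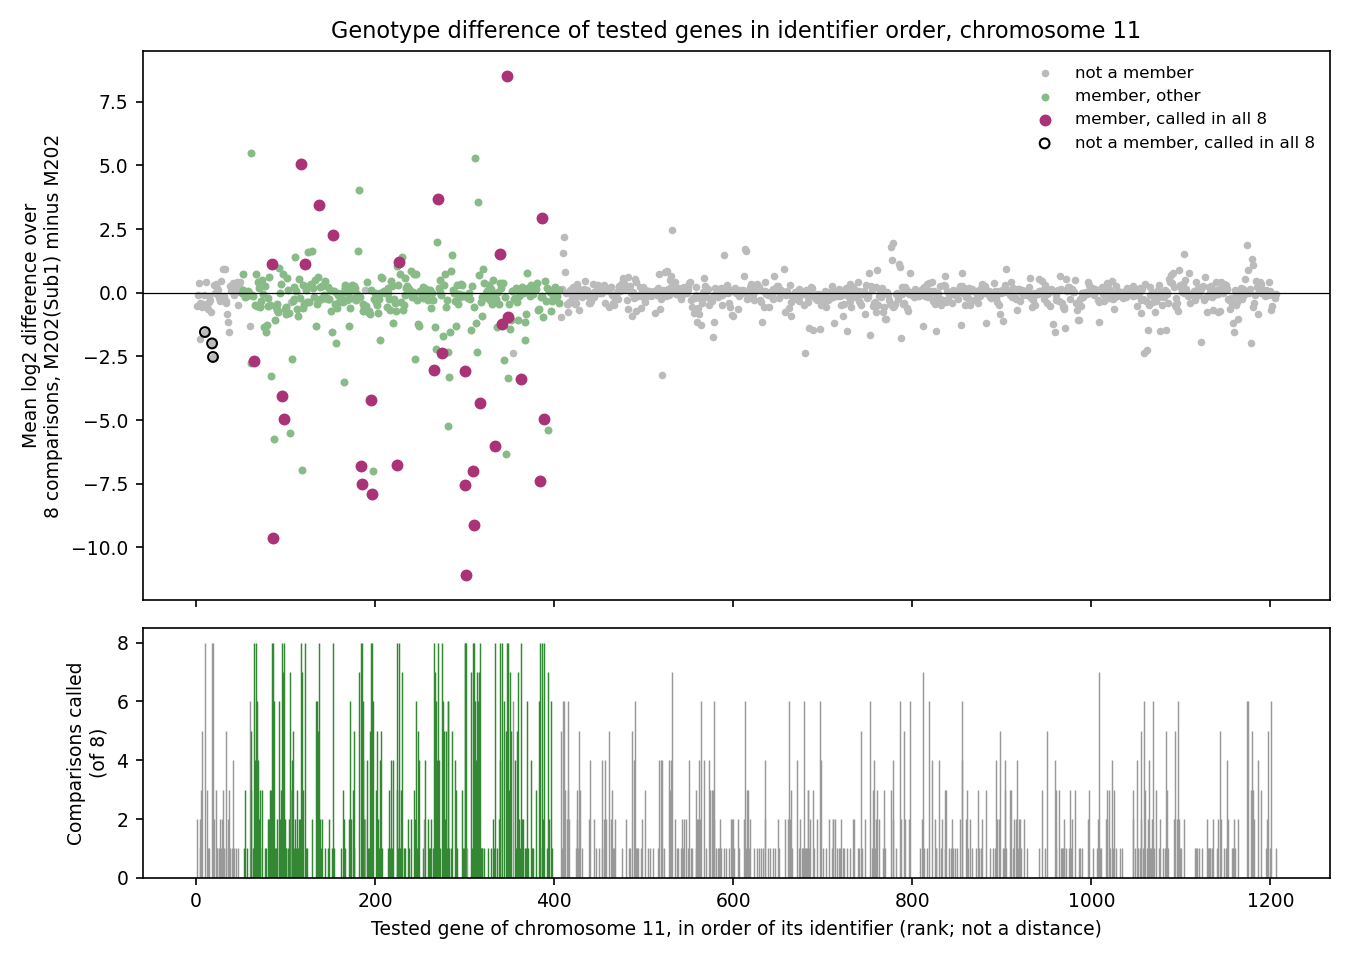
Tested genes of chromosome 11 in the order of their identifiers (x axis, rank), with the mean log2 difference over the 8 comparisons of M202(Sub1) with M202 (upper panel) and the number of comparisons in which each gene was called (lower panel). The 33 members called in 1 direction in all 8 comparisons are spread over the stretch among members near 0, and none of the 800 tested genes after the stretch was called in all 8.

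The members called in 1 direction throughout were spread along the order and were not a solid block. The first was OS11G0115100, with 13 tested members before it, and the last was OS11G0206000, with 17 after it. Between these ends lay 113 members called in none of the 8 comparisons. The longest run without such a member held 37 others and lay between OS11G0151300 and OS11G0161000, and the median run held 4.5. As many as 6 pairs were direct neighbours among the tested members, namely OS11G0119100 with OS11G0119200, OS11G0141550 with OS11G0141800, OS11G0145700 with OS11G0146000, OS11G0170300 with OS11G0170400, OS11G0170400 with OS11G0170900, and OS11G0172133 with OS11G0172150. In the first of these pairs, OS11G0119100 was higher in M202(Sub1) and OS11G0119200 lower, while both genes of the other pairs were lower.

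By blocks of identifiers, the share called in all 8 in 1 direction varied along the stretch. It was 7 of 70 members from the start to OS11G0129999, 2 of 51 among identifiers that begin with OS11G013, 4 of 43 with OS11G014 and 2 of 42 with OS11G015. It was 3 of 37 with OS11G016, 6 of 33 with OS11G017 and 5 of 28 with OS11G018. The last blocks, OS11G019 and OS11G020, held 1 of 17 and 3 of 29. The OS11G017 and OS11G018 blocks thus had the highest shares, at 18.2% and 17.9%, and the OS11G013 block the lowest, at 3.92%.

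Outside the stretch, 157 of 21103 tested genes (0.744%) were called in 1 direction in all 8 comparisons, against 9.43% of the members. These 157 were not spread evenly, since chromosome 12 held 67 of its 1205 tested genes (5.56%) and chromosome 9, which carries the Sub1 locus, 40 of 1174 (3.41%). The share on chromosomes 1 to 8 and 10 was between 0 and 0.978%. On chromosome 11, 3 of the 50 tested genes before the stretch were called so, and 0 of the 800 after it. Those 3, OS11G0103800, OS11G0104900 and OS11G0104933, are named because their values were seen to stand out, with mean log2 differences of -1.54, -1.99 and -2.52. In the stretch of chromosome 12 with the same identifier numbers, OS12G0112200 to OS12G0209900, 17 of 357 tested genes (4.76%) were called so, 14 lower and 3 higher. How reads of near-identical genes of chromosomes 11 and 12 were shared between copies was not tested.

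The deepest differences were those of members that M202 expressed in every library and M202(Sub1) hardly at all. OS11G0170900 ranged in M202 from 11 through a median of 150 to 624 CPM, and in M202(Sub1) from 0 through a median of 0 to 0.914 CPM, with 19 of 24 libraries at 0. Its mean level was 1568-fold lower in M202(Sub1), on 17 counts in that genotype against 35047 in M202. The ranges did not overlap in any group.

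OS11G0170400 lay between 65.5 and 166 CPM in M202 (median 103) and between 0 and 1.39 CPM in the libraries of M202(Sub1) (median 0.518), a 176-fold lower mean level. OS11G0119200 lay between 14.2 and 41.3 CPM in M202 (median 25.4), and in M202(Sub1) 22 of 24 libraries were at 0 and the highest had 0.555 CPM. OS11G0172150 lay between 7.91 and 47.2 CPM in M202 (median 23.5) and reached 0.171 CPM at most in M202(Sub1), with 18 libraries at 0. For each of these 3 genes, every M202 library was above every M202(Sub1) library.

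Smaller but equally separate were OS11G0180300, OS11G0206000, OS11G0202600 and OS11G0173600. OS11G0180300 had 15.5 to 40.8 CPM in M202 (median 28.5) against 0 to 2.26 CPM in M202(Sub1) (median 0.378), a 53.8-fold lower mean. OS11G0206000 had 4.79 to 23.1 CPM in M202 (median 15.1) against 0 to 2.32 CPM in M202(Sub1) (median 0.382), 26.0-fold lower. OS11G0202600 had 3.78 to 22.6 CPM (median 8.61) against 0 to 0.573 CPM (median 0), 124-fold lower. OS11G0173600 had 2.52 to 13.3 CPM (median 6.58) against 0 to 1.22 CPM (median 0.293), 19.7-fold lower. In all 4 the genotypes did not overlap.

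Some members had no count at all in 1 genotype. OS11G0146000 had 791 counts over the 24 M202 libraries (1.73 to 13.2 CPM, median 4.27) and 0 in M202(Sub1), at least 10.04-fold lower against a floor of 3 counts per library. OS11G0129000 had 532 counts against 0, at least 7.24-fold lower. OS11G0150800 had 378 against 0, at least 4.63-fold lower, and OS11G0164900 had 167 against 0, at least 2.02-fold lower. In the opposite direction OS11G0114300 had 0 counts in M202 and 158 in M202(Sub1), at least 2.15-fold higher. Not all of these were called throughout, with OS11G0129000 called in 7 of the 8 comparisons, OS11G0164900 in 6 and OS11G0114300 in 5.

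A few more members had 1 or 2 counts in all of M202(Sub1). OS11G0182500 had 1105 counts in M202 against 1, a ratio per library size of 1021 (95% exact counting interval 183 to 40356), and OS11G0146200 had 1012 against 1, a ratio of 935 (167 to 36963). OS11G0141800 had 780 against 1 and OS11G0172133 and OS11G0141550 had 597 and 482 against 2. Within M202, OS11G0182500 was highest in non-elongating leaves at day 0, at 43.8 ± 5 CPM (SD, n = 3), and OS11G0146200 in elongating leaves on day 6, at 16.9 ± 2.44 CPM. Their ratios pool groups of unlike level, and OS11G0182500 was called in 5 of the 8 comparisons and OS11G0146200 in 6. Whether a transcript was missing from M202(Sub1) or its reads did not match the reference assembly cannot be told apart in these counts.

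**Figure D2:**
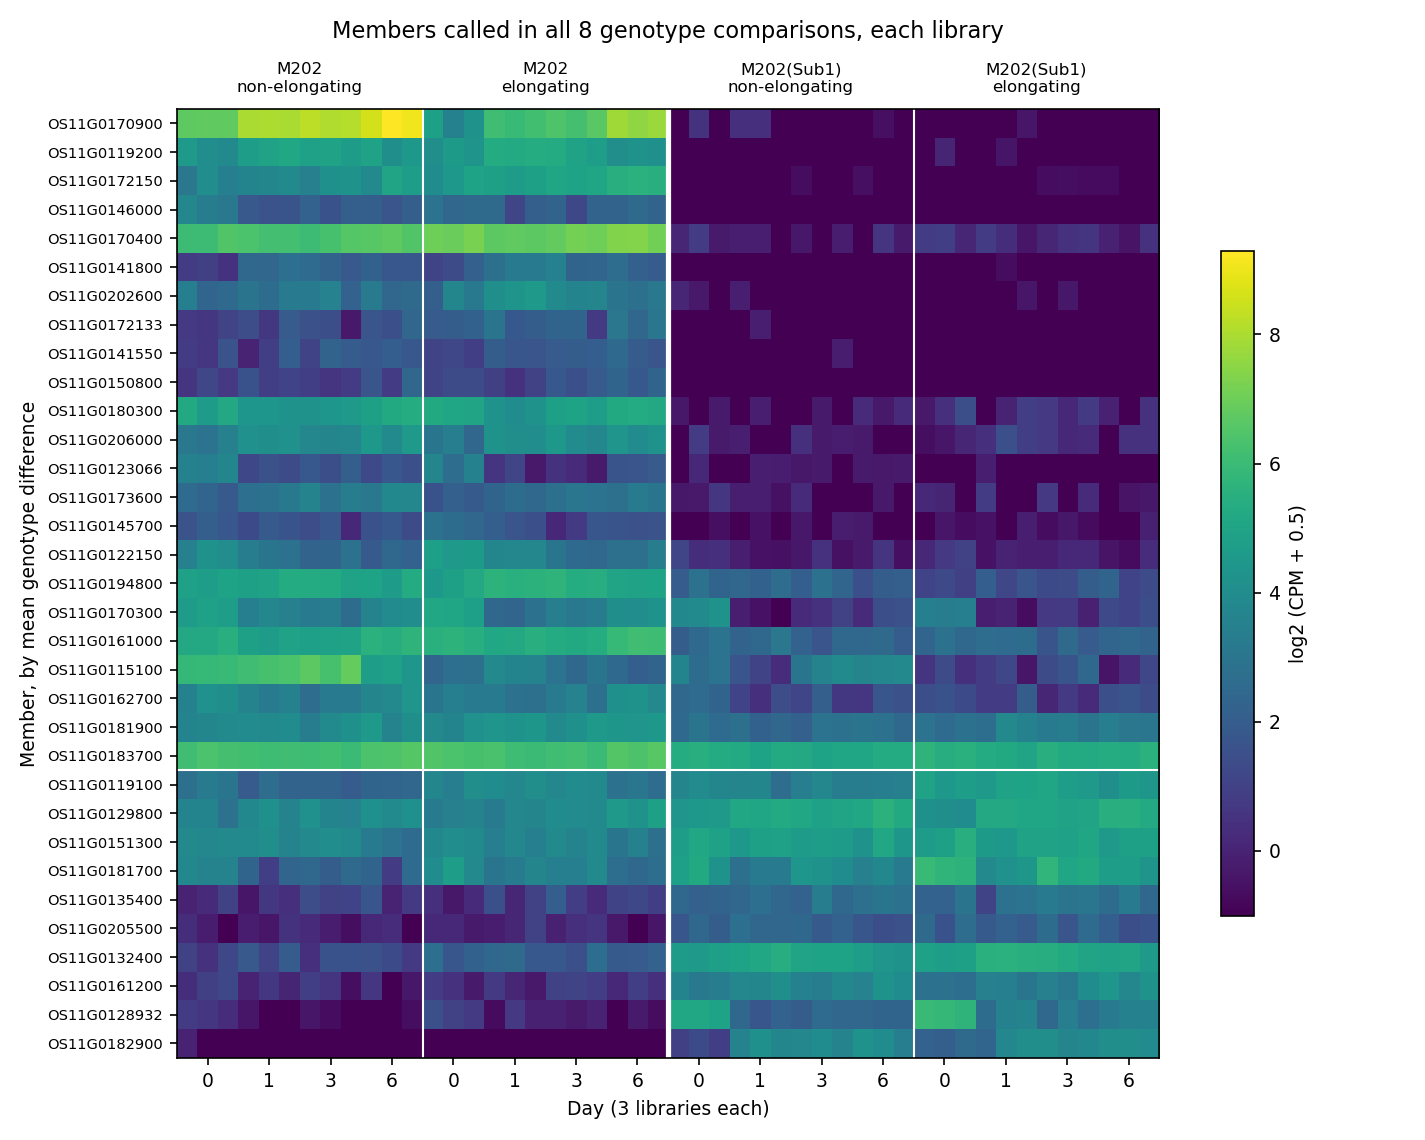
Level of the 33 members called in 1 direction in all 8 genotype comparisons (rows, by mean difference) in each of the 48 libraries (columns, by genotype, leaf type and day), as log2 of CPM plus 0.5. The 23 members above the line are darker in the M202(Sub1) columns throughout and the 10 below it are darker in the M202 columns, with changes over days inside several rows.

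The 10 members higher in M202(Sub1) were led by OS11G0182900, which was at 0 in 23 of 24 M202 libraries and at 0.503 CPM in the last. The range in M202(Sub1) was 1.38 to 18.3 CPM (median 12.8). Its non-elongating leaves had 1.43, 1.98 and 1.38 CPM at day 0 and 11.8, 17.5 and 12.7 CPM on day 1, which put the submerged libraries above those of day 0 in the genotype that had it. Every M202(Sub1) library was above every M202 library.

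OS11G0128932 fell under water in both genotypes from different starting levels. In non-elongating leaves at day 0 it had 1.26, 1.06 and 0.746 CPM in M202 against 35.3, 35.8 and 31 CPM in M202(Sub1), and on day 1 it had 0.262, 0 and 0 CPM against 4.98, 2.85 and 4.23 CPM. Over all libraries its mean level was 31.6-fold higher in M202(Sub1). OS11G0161200 lay between 0 and 1.86 CPM in M202 and between 6.06 and 20.4 CPM in M202(Sub1), 13.0-fold higher, and OS11G0132400 between 0.822 and 6.31 and between 18.5 and 46.7 CPM, 10.5-fold higher. For these 3 genes too no library of M202 reached the lowest of M202(Sub1).

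OS11G0205500, a gene of low level, lay between 0 and 1.55 CPM in M202 (median 0.429) and between 2.24 and 6.18 CPM in M202(Sub1) (median 3.64), a 7.70-fold higher mean with no overlap. The other 5 higher members differed less. The median of OS11G0135400 was 1.25 CPM in M202 against 6 in the other genotype, that of OS11G0181700 6.78 against 20, that of OS11G0151300 13.2 against 28, that of OS11G0129800 13.3 against 33.9, and that of OS11G0119100 7.19 against 15.9. In mean level these were 4.52-fold, 2.89-fold, 2.27-fold, 2.23-fold and 2.09-fold higher in M202(Sub1). Of this set OS11G0151300 was apart in every library, with 16.3 CPM as the highest value of M202 and 18.3 CPM as the lowest of M202(Sub1), while OS11G0135400, OS11G0181700, OS11G0129800 and OS11G0119100 overlapped over the whole set of libraries.

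The sizes covered a wide range. Over the 23 lower members, mean levels were 1.96-fold to 1568-fold lower where M202(Sub1) had more than 3 counts (18 members, median 19.99-fold), and over the 10 higher members 2.09-fold to 533-fold higher (median 6.11-fold). The smallest, OS11G0183700, also had the narrowest range over the 8 comparisons among these 33, with 63.3 to 96.8 CPM in M202 (median 75.2) against 30.4 to 51.2 CPM in M202(Sub1) (median 39.3), and log2 differences of -1.23 to -0.78. Libraries of the 2 genotypes did not overlap in 19 members that were lower in M202(Sub1), beside 0.42% of all tested genes, and in 6 that were higher, beside 0.149%. That set holds 24 of the 33 members called throughout and OS11G0161100, which had 10.7 to 35.8 CPM in M202 and 3.65 to 10.5 CPM in M202(Sub1) and was called in 7 comparisons.

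Among these genes, or just before them in the case of OS11G0113200, lay members with closely similar levels in both genotypes. OS11G0148500 had 211 to 543 CPM in M202 (median 315) against 245 to 599 CPM in M202(Sub1) (median 331), and its log2 differences lay between -0.13 and 0.20. OS11G0182400, a few identifiers from OS11G0182900, had medians of 42.8 and 37.3 CPM and differences of -0.29 to -0.04. OS11G0113200 had medians of 49.1 and 52.3 CPM and differences of -0.15 to 0.21. None of these 3 was called in any of the 8 comparisons, which does not show that their levels were equal.

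The outermost members were not called in single comparisons, while several genes just past the last of them were. The first and last members, OS11G0112200, OS11G0112300, OS11G0209600 and OS11G0209700, were called in 0 of the 8 comparisons, with mean log2 differences of -0.01, 0.12, -0.41 and 0.11. OS11G0209700 did pass the threshold when the mean over the 8 comparisons was tested as 1 contrast. Just outside the range, OS11G0112050, OS11G0112100 and OS11G0210000 were called in 0 as well, and OS11G0210100 was called in 5, with a mean difference of -0.96 and medians of 14.5 CPM in M202 against 5.73 CPM in M202(Sub1). The next tested genes were OS11G0210201, called in 1 (mean difference 0.16), and OS11G0210300, which is the submergence marker ADH1, called in 6 (1.56). After them came OS11G0210500, called in 6 (2.18), and OS11G0210600, called in 3 (0.80). Among the identifiers set aside, CIPK15 was called in 6, with a mean difference of -1.31 and medians of 135 and 42.4 CPM. These medians pool days of unlike level. At day 0 its group means were 1.26 (non-elongating) and 4.98 CPM (elongating) in M202 against 1.15 and 3.56 CPM in M202(Sub1). On day 3 they were 256 and 311 CPM against 85.3 and 54.7 CPM. OS11G0184900 was called in 6, with a mean difference of -2.37 and medians of 42.5 and 4.41 CPM. Its day 0 means were 133 and 59.3 CPM in M202 against 92.9 and 41.1 CPM in M202(Sub1). The other set-aside genes that were tested differed less often, with OS11G0126900 called in 3 (mean difference -0.35), OS11G0143300 in 2 (0.09), OS11G0157600 in 2 (0.01) and OS11G0171300 in 1 (-0.11). OS11G0186900 was not tested. Some 18.2% of the members called throughout had identifiers that do not end in 00, beside 12.6% of the tested members and 8.19% of all tested genes.

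Changes from day 0 were called in the members about as often as in genes at large. The stretch was not proposed from this contrast, but the minimum of 1 CPM in any group lets in genes from submerged or day 0 groups alone. Genes that reach the minimum under submergence alone, such as OS11G0133001 and OS11G0156600, had to differ from day 0. So did genes that reach it at day 0 alone, such as OS11G0136450 and OS11G0136400, which had to fall. In M202, non-elongating leaves had 173 members called against day 0 on day 1 (76 rose, 97 fell), beside 52.5% of all tested genes, 184 on day 3 (80 rose, 104 fell), beside 51.2%, and 189 on day 6 (92 rose, 97 fell), beside 53.4%. Elongating leaves of M202 had 172 (71 rose, 101 fell), beside 53.8%, then 166 (76 rose, 90 fell), beside 49.9%, and 197 (104 rose, 93 fell), beside 53.5%. As shares these were 47.4 to 56.3% of the tested members, above the share of all genes on day 3 in non-elongating leaves and on day 6 in both leaf types, and below it otherwise.

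In M202(Sub1) the members' shares were lower than those of all genes in each of the 6 comparisons. The minimum of 1 CPM in any group also lets in genes that reach it in M202 alone. Among such genes, OS11G0146000 and OS11G0150800 had 0 counts in M202(Sub1) and could not be called here. How far the choice of members bears on the lower share was not tested. Non-elongating leaves had 166 members called on day 1 (62 rose, 104 fell), beside 56%, 159 on day 3 (66 rose, 93 fell), beside 52.3%, and 151 on day 6 (71 rose, 80 fell), beside 51%. Elongating leaves had 161 (75 rose, 86 fell), beside 55.3%, 160 (79 rose, 81 fell), beside 52.6%, and 177 (91 rose, 86 fell), beside 53.3%. The median log2 change of the members lay between -0.21 and 0.08 over the 12 comparisons, and that of all genes between -0.02 and 0.06. The members were lower in level than the average gene, and how far that bears on these shares was not tested.

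**Figure D3:**
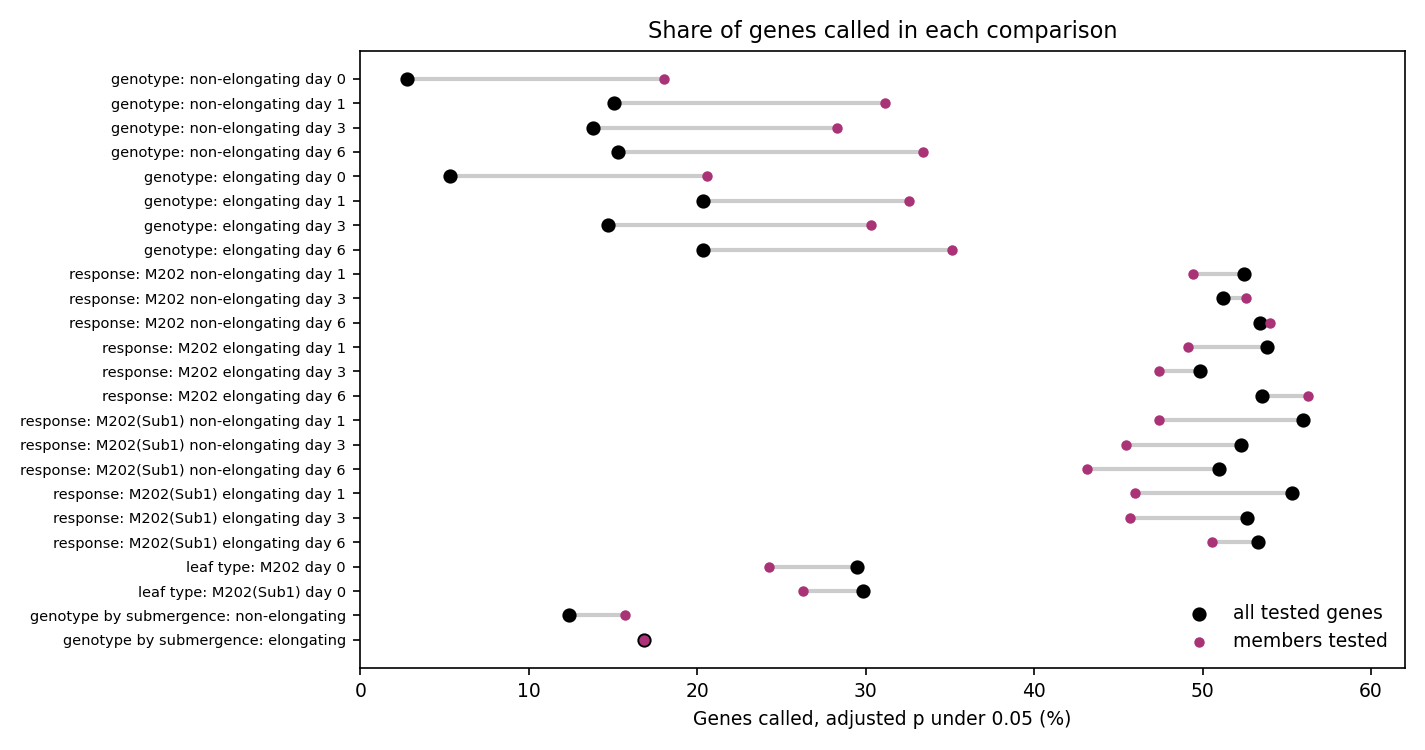
Share of the 350 tested members and of all 21453 tested genes that were called in each comparison (%, adjusted p under 0.05). The members' points lie to the right of those of all genes in the 8 genotype comparisons, and to the left in the leaf type comparisons and in the 6 responses of M202(Sub1).

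In all 12 comparisons with day 0, 25 members rose, beside 9.33% of all tested genes, and 33 fell, beside 9.04%. Both counts include genes that reached the minimum of 1 CPM only under water or only at day 0. The 3 comparisons of a leaf type and genotype share their day 0 libraries. The member with the most counts, OS11G0139700, was among those that rose. In non-elongating leaves of M202 it had 152, 137 and 147 CPM at day 0 and 6469, 6193 and 5989 CPM on day 1, and in M202(Sub1) it had 94.8, 106 and 115 CPM and then 5097, 4089 and 4320 CPM. The rise was 5.42 ± 0.18 (log2, SE) in M202, with an edgeR adjusted p of 1.49e-28, and 5.42 ± 0.18 in M202(Sub1), with 8.93e-29. Over the 12 comparisons it rose by 4.32 to 5.42, and no submerged library was near the day 0 level.

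OS11G0133001 was at 0 in 11 of the 12 day 0 libraries. In non-elongating leaves of M202 it reached 42.7, 55.9 and 39.7 CPM on day 1, at least 94.5-fold higher against a floor of 3 counts per library, and 151, 150 and 170 CPM on day 3. In M202(Sub1) these were 67.1, 73.2 and 75.7 CPM and then 127, 101 and 119 CPM. Elongating leaves stayed far lower in both genotypes, with 9.57, 9.56 and 9.68 CPM on day 6 in M202 and 4.98, 3.37 and 3.43 CPM in M202(Sub1).

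OS11G0156600 and OS11G0139600 also went from almost no counts to low levels. OS11G0156600 had 21.5, 26.2 and 22.8 CPM in the non-elongating day 1 libraries of M202 and 7.77, 7.75 and 6.26 CPM in M202(Sub1). Against the floor, the M202(Sub1) level was at least 15.5-fold higher than at day 0. OS11G0139600 had 6.81, 7.46 and 4.69 CPM against 1.39, 3.87 and 3.13 CPM in those groups. In both genes the M202(Sub1) libraries of that day lay below all those of M202.

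OS11G0173366 rose in both leaf types. In elongating leaves of M202 it had 0.42, 0.297 and 0.342 CPM at day 0, 44.4, 42.3 and 35.8 CPM on day 1 and 97.8, 93.1 and 94.2 CPM on day 6. The rise was 6.81 ± 0.34 (log2, SE; edgeR adjusted p = 1.79e-21) on day 1 and 8.03 ± 0.32 (adjusted p = 6.15e-25) on day 6. In M202(Sub1) it was at 0 in the 3 elongating day 0 libraries and at 13, 13 and 20.5 CPM on day 6, at least 35.3-fold higher. The day 6 levels of the genotypes did not overlap in this leaf type.

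The members that fell furthest were close to silent under water. They reached the minimum of 1 CPM at day 0 alone, so that they fell was set by the choice of members. OS11G0136450 had 12.4, 19.7 and 19.6 CPM at day 0 in non-elongating leaves of M202 and 0 counts on day 3, at least 40.7-fold lower. M202(Sub1) had 13.3, 15.1 and 15.1 CPM and 0 counts on days 1, 3 and 6, at least 24.7-fold lower on day 1. Its neighbour by identifier, OS11G0136400, had 4.93 to 8.17 CPM in that leaf type of M202 at day 0 and 0 counts on day 1, at least 16.9-fold lower, and was called in 0 of the 8 genotype comparisons.

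OS11G0138400 had 19.8 ± 6.39 CPM (SD, n = 3) at day 0 in elongating leaves of M202(Sub1) and 5.24 ± 0.98 CPM in M202, and at most 0.206 ± 0.358 CPM as a group mean under water. OS11G0117400 had 2.33 ± 0.435 CPM at day 0 in non-elongating leaves of M202 and 2.14 ± 1.26 CPM in M202(Sub1), and at most 0.328 ± 0.0786 CPM later. The counts of both genes under water were thus few in each genotype.

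**Figure D4:**
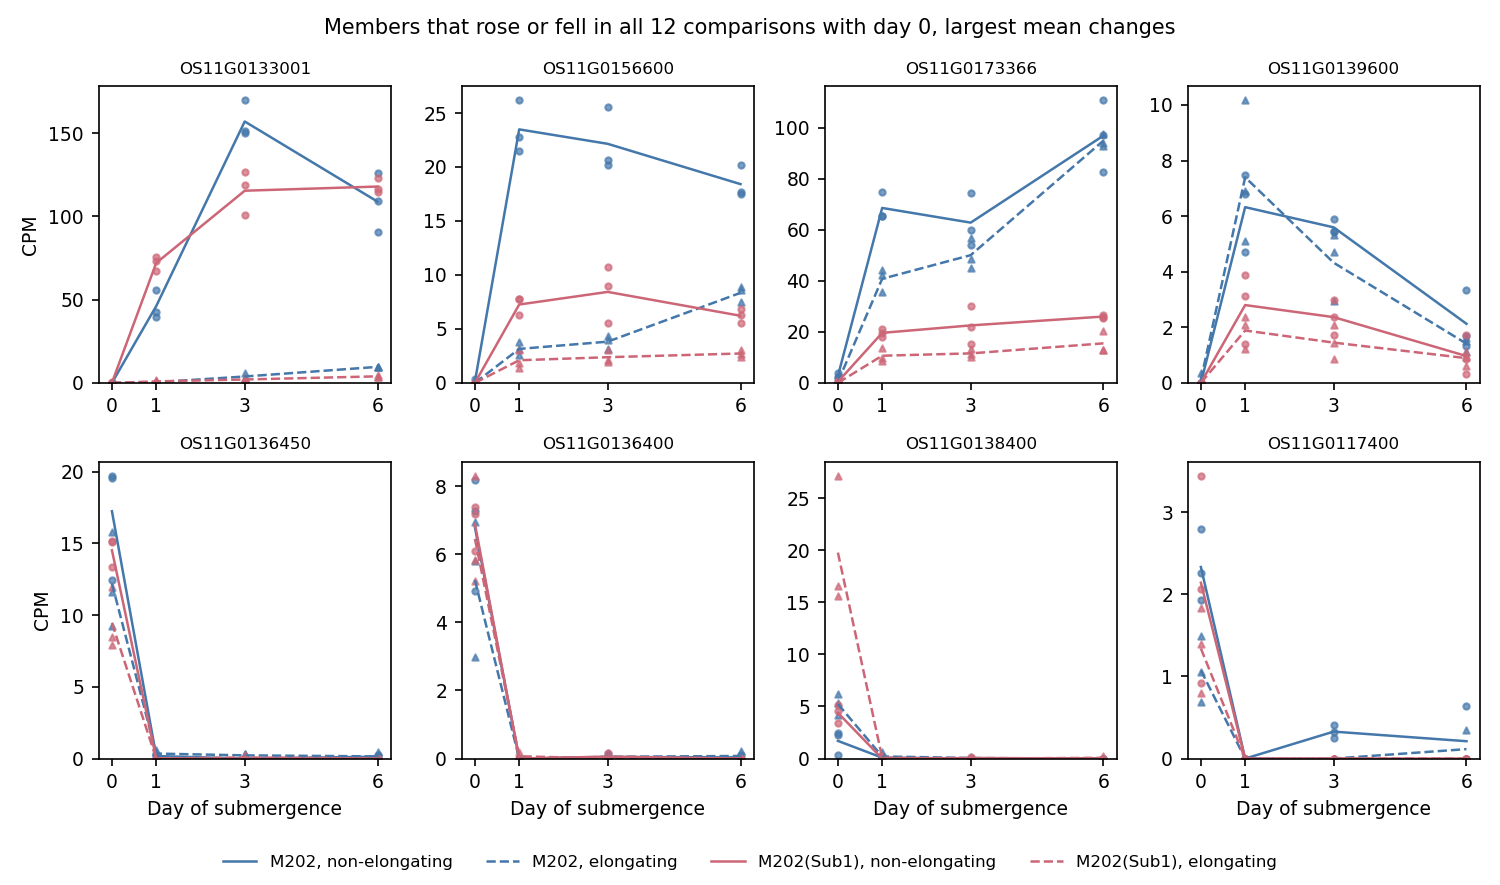
CPM of the 4 members that rose and the 4 that fell with the largest mean change in all 12 comparisons with day 0, by day of submergence (x axis, days), with a point for each library and lines through the means of 3. OS11G0133001 reached 170 CPM in non-elongating leaves and 9.68 CPM in elongating leaves of M202, and OS11G0136450 went from 12.4 to 19.7 CPM at day 0 in non-elongating leaves of M202 to near 0 in all submerged groups.

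Other members with many counts behaved differently. OS11G0115350 fell in elongating leaves from 6112, 5102 and 7330 CPM at day 0 to 1816, 1991 and 1551 CPM on day 6 in M202, a change of -1.79 ± 0.23 (log2, SE; edgeR adjusted p = 7.34e-09), and from 5493, 6867 and 4643 to 1140, 1106 and 817 CPM in M202(Sub1), a change of -2.47 ± 0.24 (adjusted p = 2.13e-12). OS11G0163100 rose in elongating leaves on day 3 by 0.99 ± 0.11 in M202 (adjusted p = 8.14e-11) and by 0.97 ± 0.11 in M202(Sub1) (adjusted p = 1.13e-10). OS11G0118400 varied widely between replicates and was called in 0 of the 12 comparisons. Its highest library, at 3276 CPM, was 1 of the 3 from elongating leaves of M202(Sub1) on day 3, whose others had 377 and 410 CPM.

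Among the members that differed between the genotypes throughout, submergence also moved OS11G0170900. In non-elongating leaves of M202 it had 105, 109 and 110 CPM at day 0 and 393, 624 and 541 CPM on day 6, a rise of 2.26 ± 0.20 (log2, SE; edgeR adjusted p = 2.04e-12). In elongating leaves it went from 28.2, 11 and 19.1 to 224, 189 and 215 CPM, a rise of 3.46 ± 0.23 (adjusted p = 3.41e-16). In M202(Sub1) it was at or near 0 on all these days. OS11G0170300, next to it but for OS11G0170400, fell in both genotypes.

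Before submergence the leaf types differed in a somewhat smaller share of members than of genes at large. In M202 85 members were called, 43 higher and 42 lower in elongating leaves, beside 29.5% of all tested genes, and in M202(Sub1) 92, 34 higher and 58 lower, beside 29.8%. As shares these were 24.3 and 26.3% of the members. In both genotypes 24 members were higher in elongating leaves, beside 10.4% of all tested genes, and 33 lower, beside 10.5%.

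OS11G0202300 was higher in elongating leaves. At day 0 it had 57.8, 67.2 and 77.4 CPM in elongating and 13.8, 16.5 and 9.32 CPM in non-elongating leaves of M202, a difference of 2.34 ± 0.17 (log2, SE; edgeR adjusted p = 1.96e-15). M202(Sub1) had 55.4, 44.9 and 44.3 against 6.45, 6.86 and 8.43 CPM, a difference of 2.74 ± 0.18 (adjusted p = 1.78e-16). The leaf types did not overlap in either genotype. OS11G0118600 was also called higher, on low counts, with 2.78 ± 0.66 CPM (SD, n = 3) in elongating and 0.617 ± 0.23 CPM in non-elongating leaves of M202.

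OS11G0132600 was lower in elongating leaves. In M202 it had 6.31, 5.5 and 3.93 CPM there and 23.1, 24.1 and 28.3 CPM in non-elongating leaves, a difference of -2.27 ± 0.26 (log2, SE; edgeR adjusted p = 1.59e-09). In M202(Sub1) it had 7.5, 7.5 and 9.87 against 126, 120 and 131 CPM, a difference of -3.91 ± 0.24 (adjusted p = 2.88e-17). The non-elongating leaves of M202(Sub1) thus stood apart from the other 3 groups at day 0. OS11G0173366 was lower too, with a difference of -2.85 ± 0.53 in M202 (adjusted p = 3.51e-05), where its day 0 counts were 6 against 49.

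Whether the genotype difference changed between day 0 and the submerged days is built from the genotype differences and is described in the same way. In non-elongating leaves 55 members were called, beside 12.4% of all tested genes, and in elongating leaves 59, beside 16.9%. As shares these were 15.7 and 16.9% of the members. Both shares were close to those of genes at large.

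OS11G0182200 had 15.3, 11.6 and 8.02 CPM at day 0 in non-elongating leaves of M202 and 0, 0.305 and 0.344 CPM in M202(Sub1). On day 6 it had 16.2, 19.4 and 12.7 CPM against 10.2, 13.4 and 10.2 CPM. The gap at day 0 was therefore nearly gone by day 6, when the libraries overlapped. OS11G0132600 crossed over in non-elongating leaves, from the day 0 values above to 14.8, 16.8 and 20 CPM in M202 against 7, 6.6 and 8.83 CPM in M202(Sub1) on day 6.

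OS11G0170300 opened a gap under water. At day 0 non-elongating leaves had 25.3, 29.2 and 26.3 CPM in M202 against 13.5, 14.2 and 18.6 CPM in M202(Sub1), and on day 1 they had 10.3, 13 and 10.7 CPM against 0.398, 0.204 and 0 CPM. OS11G0115100 had 56.9, 59.1 and 61.3 against 11.9, 5.79 and 7.05 CPM at day 0 and 70.2, 76.8 and 81.8 against 2.79, 1.63 and 0.736 CPM on day 1. In both genes the genotypes were apart on both days and further apart, as a ratio, on day 1.

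In elongating leaves of M202, OS11G0145200 rose on day 1 and was back near its day 0 level on day 6. It had 20.2, 23.5 and 21.4 CPM at day 0, 134, 126 and 117 CPM on day 1 and 20.1, 19.8 and 19.8 CPM on day 6 in M202, a rise of 2.53 ± 0.17 (log2, SE; edgeR adjusted p = 1.1e-17) on day 1. In M202(Sub1) it had 17.7, 16.7 and 19 CPM at day 0 and 14.5, 21.8 and 21.8 CPM on day 1, a change of 0.14 ± 0.18 (adjusted p = 0.527). The genotypes were far apart on day 1 and overlapped on day 6, when M202(Sub1) had 21.8, 20.3 and 17.5 CPM.

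OS11G0123033 and OS11G0189600 moved the other way in elongating leaves. OS11G0123033 had 22.7, 23.5 and 24.6 CPM in M202 against 16, 14.2 and 16.4 CPM in M202(Sub1) at day 0, and 23.2, 21 and 21.1 CPM against 51.4, 52 and 49.5 CPM on day 1. OS11G0189600 had 11.4, 6.54 and 4.79 CPM against 1.12, 2.08 and 3.1 CPM at day 0, and 30.7, 32.7 and 43.7 CPM against 65.8, 61 and 72.1 CPM on day 6. In both genes M202(Sub1) was the lower genotype at day 0 and the higher one later, with no overlap on either day.

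**Figure D5:**
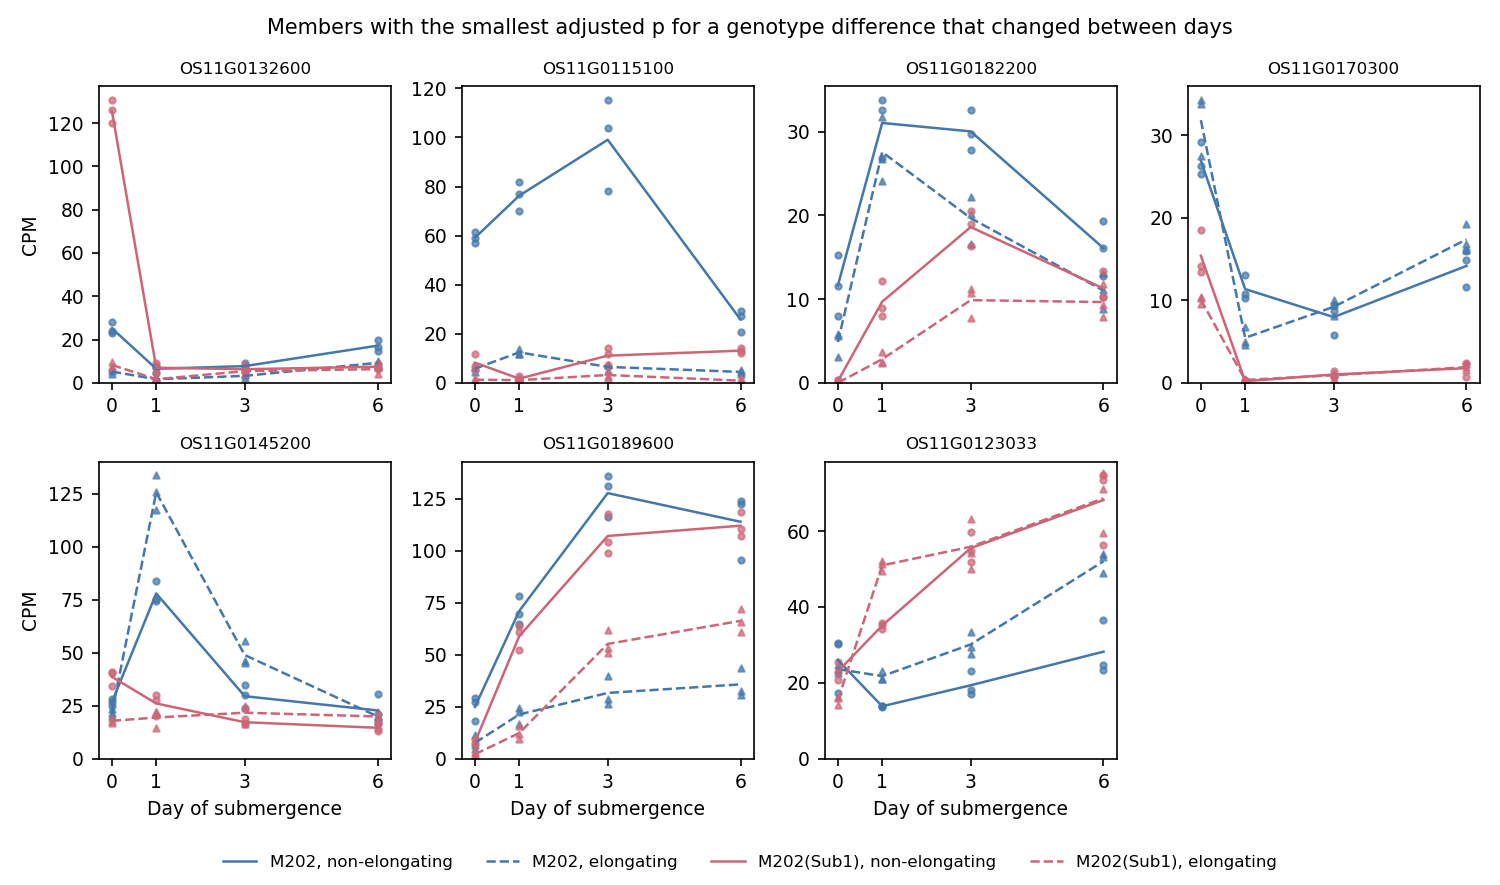
CPM of the members with the smallest adjusted p for a genotype difference that changed between days, by day of submergence (x axis, days), with a point for each library and lines through the means of 3. OS11G0145200 peaks at 134 CPM on day 1 in elongating leaves of M202, and OS11G0132600 starts at 120 to 131 CPM in M202(Sub1) non-elongating leaves.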

How the data were processed

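RNA of 48 leaf libraries was sequenced in pairs of reads. The values the authors deposited are raw counts for each gene in each library. Alignment and counting are known only as far as the submitters' processing notes list STAR, featureCounts, DESeq2 and the assembly IRGSP-1.0, with no version given. In each library 62.3 to 73.8% of the counts were even, so both reads of a pair may have been counted singly. Counting intervals and floors cover counting error only and are then too narrow. The use of strand is not given in the sources used here, and overlapping or antisense genes were not resolved.

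The filter was filterByExpr with a count of 10 and a total of 15 as minima. It passed 21453 genes, with 99.86% or more of the counts in every library. Libraries were scaled with TMM factors, and CPM use them. Tests were two-sided quasi-likelihood F tests, run with edgeR 4.0.16 under R 4.3.3 in 1 fit of 16 groups with 32 residual degrees of freedom. The comparisons were 8 of the genotypes, 12 of a submerged day with day 0, 2 of the leaf types and 2 of genotype by submergence over 3 days together. To compare settings, the mean over the 8, 12 or 2 comparisons of a kind was also tested as 1 contrast. This was done for the named genes other than those named for genotype by submergence. The p-values rest on the spread between biological replicates, pooled over the 16 groups and with information shared across genes. They do not rest on the 3 replicates of the compared groups alone. The test was checked on simulated counts with the same spread for every gene, so the check does not cover genes whose spread differs. The settings varied were the scaling (RLE, upper quartile), the filter (none), a block for the replicate number, a fit of the compared groups by themselves, the tool (DESeq2 1.42.0), other minima for CPM, a threshold of 0.01 and each library left out in turn.

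The members, the lists and the rule for naming genes were chosen with earlier results of these data known. Genes named are, of the members called in all 8 genotype comparisons with a mean of at least 5 CPM in the higher genotype, up to 8 per direction with the largest mean difference, those near 0 in 1 genotype, the ends of the stretch with their neighbours, the largest responders and leaf type differences, those with the smallest adjusted p for genotype by submergence, those with the most counts, and steady members in between. OS11G0115400, OS11G0119100, OS11G0161100, OS11G0183700, OS11G0205500, the neighbouring pairs and the members with no more than 2 counts in 1 genotype, other than those the rule took, were named after their values were seen. So were OS11G0210201, OS11G0210500 and OS11G0210600, just past the stretch. Members are given by identifier, since no table of these identifiers with names was used. CIPK15, ADH1 and the markers were paired with identifiers from general knowledge. SUB1A was not analysed here.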

Additional observations from a re-analysis of the deposited data

Results flagged for a closer look

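The following genotype differences, M202(Sub1) minus M202, changed between day 0 and a submerged day by a test of the change itself, over the 3 submerged days together (edgeR, adjusted p under 0.05). They are the members with the smallest adjusted p in each leaf type, so their sizes are those of chosen genes, and no cause was tested. They are built from the genotype differences that were in view when the stretch was proposed, and so describe it only. Each value is the largest change from day 0 on the log2 scale. In non-elongating leaves it was -3.51 for OS11G0132600 on day 6, -2.65 for OS11G0115100 on day 1, 5.20 for OS11G0182200 on day 6 and -4.93 for OS11G0170300 on day 1. In elongating leaves it was 7.86 for OS11G0182200 on day 6, -2.39 for OS11G0145200 on day 1, 2.68 for OS11G0189600 on day 6 and 1.83 for OS11G0123033 on day 1. OS11G0182200 had no count in M202(Sub1) at day 0 in elongating leaves, so its fitted value there depends on the prior count and is no bound. Groups of 3 libraries are small for a test of whether a library stands apart, and none was run. The high library of OS11G0118400 described above was picked out by its value alone.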

How the results depend on the processing

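The counts of members stayed within 1.5 times the values given above under RLE and upper-quartile scaling, without the filter, with DESeq2 and with the replicate block, where each was run. Fitting the groups compared alone gave 68 members in the genotype comparison of non-elongating leaves on day 6 in place of 117, with fewer libraries to estimate the spread. At a threshold of 0.01, 6 members were called higher in all 8 comparisons in place of 10. With the replicate block, 23 members were lower and 10 higher in all 8 comparisons, the same counts as without it. Same-numbered libraries deviated together by -0.109 to 0.157 (median 0.017), with every pair over 0.1 in 1 of 22 comparisons and every library closest to its own number in 3, so the numbers were not taken to pair libraries. Leaving out each library in turn gave 20 to 24 members lower and 7 to 10 higher in all 8. These fits kept the trend of spread over level from all 48 libraries, so they were not full refits. Of 2756 values of named genes under these settings, 30 passed the threshold no longer. Among values past the threshold in the main fit, 0 changed direction, and the others were not checked for direction. The 30 were all the mean genotype difference of OS11G0209700 or OS11G0118400. Both mean differences had passed the threshold in the main fit, tested as 1 contrast over the 8 comparisons. Taken singly, OS11G0209700 was called in 0 of the 8 and OS11G0118400 in 2. The mean difference of OS11G0118400 was 0.40 without M202(Sub1) elongating day 3 replicate 2, against 0.63 with it. The counts in all 12 responses, in both leaf type comparisons and of libraries that do not overlap, and the single-gene values, were given alternatives after the data were seen. The comparison of members with chromosome 12 counterparts and the lists by gene product were not run, since identifiers could not be matched. Genes under about 1 CPM rest on few counts, and differences there may not be detectable at this depth.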
